A study of Mus musculus with 2 samples.

Results

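The schlafen genes are a family of interferon-responsive genes that lie side by side on mouse chromosome 11. The 5 members described here, Slfn1, Slfn2, Slfn4, Slfn5 and Slfn8, were chosen by gene symbol and not by any measured value, and all 5 were found among the 32285 genes of the count tables. Their counts come from 2 single-cell RNA-seq libraries of mouse blood enriched for neutrophils with a magnetic negative-selection kit, 1 from WT mice (C57BL/6J) and 1 from APP/PS1 mice. APP/PS1 mice are a transgenic model in which mutant human genes lead to amyloid deposits in the brain, and WT mice lack these transgenes. Each library pooled the cells of 3 female mice at 7 months of age, and the cells of single mice cannot be told apart. With 1 library per genotype there is no replicate error, so no test was made and no p-value is given. Counting intervals at the 95% level stand in for it, and they say nothing of the difference between mice.

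In the count tables a unique molecular identifier (UMI) stands for 1 captured 3′ end of a transcript. For each group of cells the UMIs of a gene were added up and scaled by the total UMIs of those cells, which gives counts per 1e6 UMIs (CPM). The WT library held 17123 cells with a median of 3345 UMIs and the APP/PS1 library 17645 cells with a median of 3115 UMIs, of which 14564 and 15208 passed the filters on genes, UMIs and mitochondrial share. Clusters named by marker genes gave 7594 and 9599 neutrophils in WT and APP/PS1, beside monocytes, lymphocytes, erythroid cells and basophils that the enrichment had left. The cluster named CD8 T cells also fitted the markers of CD4 T cells, so it may hold both. Likewise the cluster named classical monocytes also fitted dendritic cell markers, and that named B cells also fitted plasma cell markers. All 7 neutrophil markers, among them S100a8, S100a9, Csf3r and Cxcr2, were higher in the cells called neutrophils than in the other cells. The same markers had named these clusters, so this is largely built in. The libraries shared 83 cell barcodes, 63 of them among the kept cells.

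Schlafen proteins bind RNA, and several members bind or cleave transfer RNA and so bear on translation and on growth arrest. The family takes its name from the German word for sleep, because Slfn1 stops the growth of T cells when it is overexpressed. Slfn1 and Slfn2 are short forms, and loss of Slfn2 function ends the quiescence of T cells and monocytes. Slfn4 is a form of intermediate length that is known from macrophages and from myeloid cells that suppress T cells. Slfn5 and Slfn8 are long forms with an added helicase-like domain, and Slfn5 is known to act in the nucleus on interferon-driven transcription.

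All 5 genes are protein coding on mm10 in GENCODE M21. Slfn5 lies at chr11:82951349-82964840 on the plus strand, Slfn8 at chr11:83002158-83020810 on the minus strand, Slfn2 at chr11:83065112-83070678, Slfn1 at chr11:83116849-83122670 and Slfn4 at chr11:83175186-83190216, the last 3 on the plus strand. The 9 schlafen genes annotated there, the pseudogene Slfn10-ps included, lie between positions 82951349 and 83286726, a span of 335 kb.

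The stretches just before the transcription starts are shown next, and whether they bear on the levels described further on was not tested. Each is 150 bases long, from 170 to 21 bases before the RefSeq start on GRCm38.p6, and is written 5′ to 3′ along the gene. In capitals are matches to GAAANNGAAA or TTTCNNTTTC, the core of the interferon-stimulated response element on either strand, or to ACTTCCTG or CAGGAAGT, a core bound by ETS factors.
Slfn5 (chr11:82951932-82952081, plus strand): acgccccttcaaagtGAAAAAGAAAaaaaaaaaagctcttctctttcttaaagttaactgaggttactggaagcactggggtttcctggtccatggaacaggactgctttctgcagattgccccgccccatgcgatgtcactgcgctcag
Slfn8 (chr11:83020831-83020980, minus strand): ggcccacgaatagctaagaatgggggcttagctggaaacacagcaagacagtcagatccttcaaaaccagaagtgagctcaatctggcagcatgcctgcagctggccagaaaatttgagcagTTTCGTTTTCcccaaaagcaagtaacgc
Slfn4 (chr11:83175016-83175165, plus strand): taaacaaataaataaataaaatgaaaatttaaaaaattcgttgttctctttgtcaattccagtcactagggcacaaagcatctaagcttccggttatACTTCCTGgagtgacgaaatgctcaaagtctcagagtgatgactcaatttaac
Slfn1 (chr11:83116650-83116799, plus strand): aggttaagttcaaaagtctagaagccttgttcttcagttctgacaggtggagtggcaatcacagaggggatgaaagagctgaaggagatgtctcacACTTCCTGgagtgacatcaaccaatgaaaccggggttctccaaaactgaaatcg
Slfn2 (chr11:83064942-83065091, plus strand): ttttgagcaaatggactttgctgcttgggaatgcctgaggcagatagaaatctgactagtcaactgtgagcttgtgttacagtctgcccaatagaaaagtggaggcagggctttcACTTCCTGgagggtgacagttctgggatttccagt

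Within 250 bases before the start, the long forms held a match to the interferon core and the other 3 members did not. Slfn5 had GAAAAAGAAA from position -155 and Slfn8 had TTTCGTTTTC from position -48, counted from the start. Of all 32851 promoter windows of this length in the RefSeq table, 978 (2.98%) held such a match. Slfn1, Slfn2 and Slfn4 shared the letters ACTTCCTG, from positions -74, -55 and -73, and 2.69% of all promoters held that word or its reverse complement. The word ACTTCCTG was picked after these sequences had been seen, as the first 8 bases of the longest run that the 3 promoters share. TTCNNNGAA, the core of the gamma-activated site, was found in no member and in 7.02% of all promoters. Slfn1 and Slfn4 had 15 bases in common around the shared word, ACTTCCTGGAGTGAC, while the longest run common to Slfn1 and Slfn2 was 12 bases and to Slfn2 and Slfn4 11 bases. These are matches of letters in a window and show no binding. The RefSeq start of Slfn5 lies 753 bases inside the GENCODE gene, so its window overlaps an exon of a noncoding Slfn5 transcript, and Slfn8 has 2 RefSeq starts, of which the one at the GENCODE start was used.

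Slfn1, Slfn2 and Slfn4 had their highest levels in neutrophils and Slfn5 had its highest level in classical monocytes, while the levels of Slfn8 in these cell types overlapped between the libraries. Slfn2 had the highest level of the 5 in neutrophils, at 796 CPM (WT) and 1082 CPM (APP/PS1). Slfn1 stood at 752 and 975 CPM there, and Slfn4 at 521 and 563 CPM. Slfn5 had 286 and 422 CPM, and Slfn8 had 51.6 and 75.2 CPM. Levels of different genes are compared per captured 3′ end, which does not depend on transcript length, though 3′ ends may differ in how well they are captured. Of all schlafen UMIs of neutrophils, Slfn2 took 34.1%, Slfn1 31.3%, Slfn4 19.4%, Slfn5 12.9% and Slfn8 2.32%.

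In classical monocytes Slfn5 came near the level of Slfn2, and Slfn4 was low. Slfn5 had 515 CPM (WT) and 593 CPM (APP/PS1), higher than in the neutrophils of either library. Slfn8 had 69.3 and 80.5 CPM, a range that overlaps the 51.6 and 75.2 CPM of neutrophils. Slfn2 had 616 and 604 CPM and Slfn1 284 and 323 CPM, both under every neutrophil value. Slfn4 had only 51.4 and 51.7 CPM in these cells against 521 and 563 CPM in neutrophils. Slfn5 made up 34.5% of the schlafen UMIs of classical monocytes and Slfn4 3.26%.

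**Figure D1:**
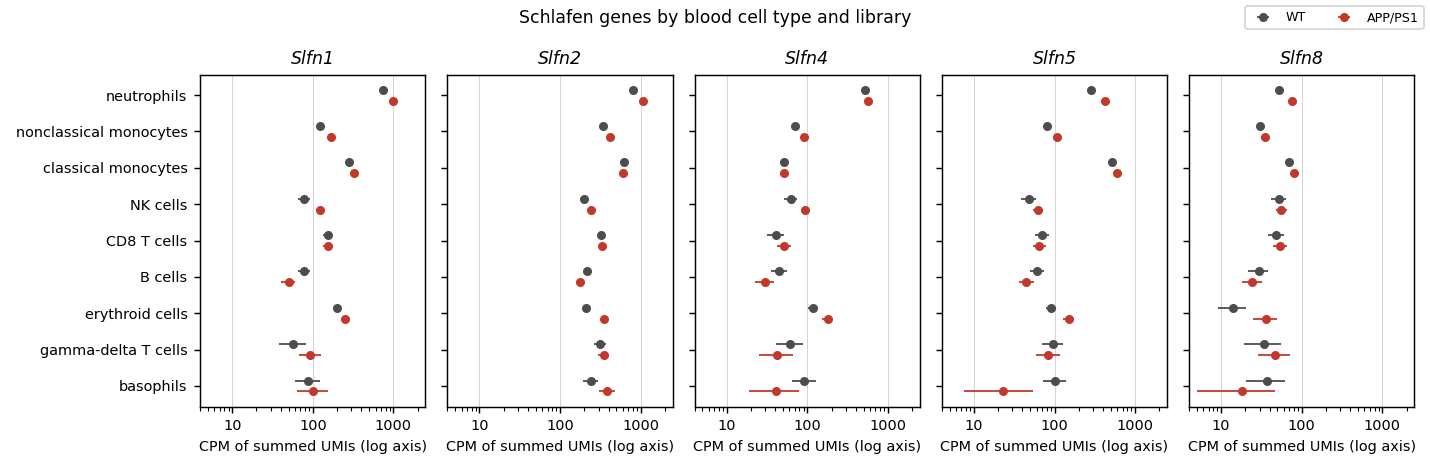
Levels of the 5 schlafen genes in each blood cell type of the WT and APP/PS1 libraries, in CPM of summed UMIs on a log axis, with exact Poisson 95% intervals as bars. Slfn1, Slfn2 and Slfn4 peak in neutrophils and Slfn5 in classical monocytes, at 515 and 593 CPM, while Slfn8 overlaps between neutrophils (51.6 and 75.2 CPM) and classical monocytes (69.3 and 80.5 CPM).

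Nonclassical monocytes, the patrolling monocytes of blood, had less of every member than neutrophils. There Slfn2 stood at 344 and 417 CPM in WT and APP/PS1, Slfn1 at 122 and 169.5 CPM, and Slfn5 at 81.5 and 108 CPM. Slfn4 had 70.8 and 92.3 CPM and Slfn8 30.6 and 35.0 CPM. Among lymphocytes the most abundant member was Slfn2, with 319 and 336 CPM in CD8 T cells, 314 and 347 CPM in gamma-delta T cells, 200.2 and 239 CPM in NK cells and 219 and 175 CPM in B cells. Slfn8 had similar levels in NK cells, at 52.1 and 55.5 CPM, and in the cluster named CD8 T cells, at 48.2 and 53.7 CPM. It took 10.3% of the schlafen UMIs of NK cells. The ranges of the 2 libraries overlapped between most neighbours in the order of cell types below classical monocytes, so that order is not settled by these data. Slfn8 did not separate neutrophils from classical monocytes or from NK cells.

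Neutrophil transcripts were present in every other cell type. S100a8 and S100a9, abundant neutrophil transcripts that encode calprotectin, together had 159991 CPM in WT neutrophils and 134791 CPM in APP/PS1 neutrophils, and between 5989 and 36132 CPM in the erythroid cells, monocytes, NK, CD8 T and B cells of the libraries. If all of the S100a8 and S100a9 UMIs of a type came from neutrophils, and schlafen UMIs came along in the neutrophil ratio, NK cells would receive 97.4 CPM of Slfn1, 60.3 CPM of Slfn4 and 40.3 CPM of Slfn5, close to the 107, 82.2 and 57.4 CPM measured there over both libraries. The same sum gives 7.22 CPM of Slfn8 in NK cells, against 54.3 CPM measured. In classical monocytes it gives 22.8 CPM of Slfn5 against 546 CPM, and in erythroid cells 192 CPM of Slfn1 against 216 CPM. Monocytes make some S100a8 and S100a9 themselves, so for them these are upper values.

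When cells with over 1% of their UMIs from S100a8 and S100a9 were left out, a choice made after the data had been seen, some levels outside neutrophils stayed and others dropped. Over both libraries, Slfn5 in NK cells was then 9.49 CPM and Slfn1 19.8 CPM, while Slfn8 stayed at 52.0 CPM and Slfn2 was 135 CPM. Classical monocytes kept 553 CPM of Slfn5, 589.8 CPM of Slfn2 and 269 CPM of Slfn1. CD8 T cells kept 106 CPM of Slfn1 and 284 CPM of Slfn2. Slfn4 was between 11.8 and 33.2 CPM in every other cell type of that subset.

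In neutrophils all 5 members were higher in the APP/PS1 library than in the WT library, with Slfn5 and Slfn8 at the largest ratios and Slfn4 at the smallest. Slfn5 was 1.48-fold higher, a log2 difference of 0.56 (interval 0.52 to 0.61). Slfn8 was 1.46-fold higher, a log2 difference of 0.54 (0.44 to 0.65). The ratio of Slfn2 was 1.36, or 0.44 on the log2 scale (0.42 to 0.47), and that of Slfn1 was 1.30, or 0.37 (0.35 to 0.40). Slfn4 had a ratio of 1.08, or 0.11 (0.08 to 0.15), not far from the median log2 difference of 0.06 over all 6152 genes with at least 200 UMIs in the neutrophils of a library. The log2 difference was over 0.5 for 2 of the 5 members, Slfn5 and Slfn8, and for 3.19% of all those genes. Ranked by log2 difference among them, Slfn5 was at place 126, Slfn8 at 145, Slfn2 at 275 and Slfn1 at 411. The counting interval lay above 0 for 5 of the 5 members and for 31.7% of all genes, and counting intervals are narrow at the depth of these members.

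The count of members over 0.5 dropped to 1 of 5 with no percentile limits on cells, with TMM library sizes and with library sizes that leave out abundant gene classes, where Slfn5 or Slfn8 came just under the limit. The log2 difference of Slfn4 ran from 0.07 to 0.32 over the alternatives, and was highest with no percentile limits. Markers of other cells moved between the neutrophils of the libraries too. Classical monocyte markers summed to 273 CPM (WT) and 241 CPM (APP/PS1) (0 of 6 higher in APP/PS1), against 5215 CPM in classical monocytes. NK cell markers summed to 16.6 and 26.9 CPM (6 of 6 higher), T cell markers to 17.9 and 58.6 CPM (3 of 7 higher), platelet markers to 869 and 1052 CPM (8 of 8 higher) and erythroid markers to 1795 and 1084 CPM (0 of 6 higher). Their part in the schlafen ratios was not tested. In such sums, more cells with a transcript and more transcripts per cell cannot be told apart.

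The share of neutrophils with at least 1 UMI was also higher in APP/PS1 for each member. At 1000 UMIs per cell, Slfn5 was found in 18.9% of WT and 25.7% of APP/PS1 neutrophils, Slfn8 in 4.67% and 7.06%, and Slfn2 in 51.8% and 63.0%. Slfn1 was found in 49.4% and 58.5%, and Slfn4 in 33.3% and 35.8%. Without thinning, at medians of 2551 and 2701 UMIs per neutrophil, the shares were 32.6% and 43.2% for Slfn5, 11.9% and 16.9% for Slfn8, 79.8% and 89.0% for Slfn2, 79.5% and 86.4% for Slfn1 and 59.1% and 62.2% for Slfn4. Erythroid cells, set beside them as a background, gave thinned shares of 6.15% and 13.5% for Slfn5, 1.15% and 3.55% for Slfn8, 13.5% and 26.2% for Slfn2, 13.5% and 23.4% for Slfn1 and 11.2% and 19.9% for Slfn4. Every thinned neutrophil share was thus above the erythroid share of its library, though the interval of the APP/PS1 erythroid share of Slfn8 reached 8.08%. Erythroid cells may not be an empty background, since those with little S100a8 and S100a9 still had 134 CPM of Slfn2, 75.4 CPM of Slfn1 and 64.3 CPM of Slfn5, where the neutrophil ratio would bring 13.2, 12.1 and 5.01 CPM. The thinned erythroid shares were also higher in APP/PS1 than in WT for every member, at S100a8 and S100a9 levels of 29589.6 CPM (WT) and 36132 CPM (APP/PS1). Unthinned, the Slfn8 share of APP/PS1 erythroid cells was 17.0%, no lower than that of neutrophils, at a median of 7499.5 and 7543 UMIs per erythroid cell in WT and APP/PS1.

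Neutrophils fell into 6 clusters, made without the schlafen genes among the features. In order of size they were a Retnlg-low cluster (2365 WT and 3351 APP/PS1 cells), a Retnlg-high cluster (2697 and 2418 cells), a cluster carrying platelet transcripts (1559 and 2403 cells), a cluster led by interferon genes (718 and 1127 cells), one led by the secondary granule genes Camp, Ltf and Ngp (168 and 224 cells) and one led by mitochondrial genes (87 and 76 cells). The interferon-led cluster thus took 9.45% of the neutrophils in WT and 11.7% in APP/PS1, and the Retnlg-high cluster 35.5% and 25.2%. Retnlg encodes a secreted resistin-like protein of mature blood neutrophils. The interferon-led cluster had the highest level of all 5 members in both libraries.

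Slfn5 spread furthest across the clusters. Its level in the interferon-led cluster was 1027 CPM (WT) and 1327 CPM (APP/PS1), with 299 and 402 CPM in the Retnlg-low cluster, 123 and 186 CPM in the Retnlg-high cluster and 80.8 and 60.2 CPM in the secondary granule-led cluster. Slfn8 followed the same order, at 167 and 206 CPM, 47.7 and 70.9 CPM, 32.1 and 41.5 CPM, and 15.9 and 22.7 CPM. Slfn4 had 1250.3 and 1379 CPM in the interferon-led cluster and between 344 and 526 CPM in all others. The short forms varied less. Slfn1 ran from 472 and 462 CPM in the secondary granule-led cluster, through 639 and 820.2 CPM in the Retnlg-high cluster, to 1176 and 1538 CPM in the interferon-led cluster. Slfn2 ran from 546 and 632 CPM to 1127 and 1517 CPM over the same clusters.

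**Figure D2:**
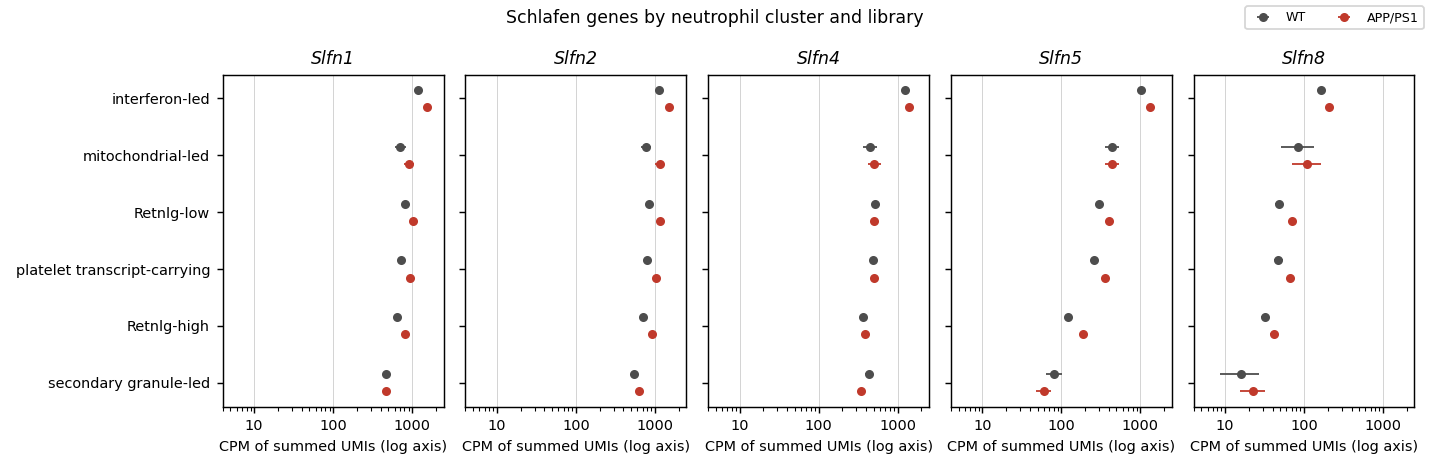
Levels of the 5 schlafen genes in the 6 neutrophil clusters of each library, in CPM of summed UMIs on a log axis, with exact Poisson 95% intervals as bars. Every member is highest in the interferon-led cluster, where Slfn5 stands at 1027 and 1327 CPM against 123 and 186 CPM in the Retnlg-high cluster.

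Set against all other neutrophils of both libraries, the interferon-led cluster had 1216 CPM of Slfn5 against 271 CPM, a 4.49-fold level and a log2 difference of 2.17 (2.12 to 2.21). Slfn8 had 192 against 51.3 CPM (3.73-fold, log2 1.90, 1.79 to 2.01) and Slfn4 had 1331 against 459 CPM (2.90-fold, log2 1.54, 1.50 to 1.58). For Slfn1 it was 1404 against 823 CPM (1.71-fold, log2 0.77, 0.74 to 0.81) and for Slfn2 1373 against 915 CPM (1.50-fold, log2 0.59, 0.55 to 0.62). The long forms and Slfn4 thus stood over 1 on the log2 scale and the short forms did not, which makes 3 of 5 members over 1, against 1.22% of all 6954 genes with enough UMIs. Each library alone gave the same order of members. In WT the log2 differences were 2.25 for Slfn5, 2.03 for Slfn8, 1.47 for Slfn4, 0.72 for Slfn1 and 0.56 for Slfn2. In APP/PS1 they were 2.09, 1.80, 1.57, 0.76 and 0.56 in that order.

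The cluster had been taken as the one with the highest mean of its interferon markers, and other interferon genes shaped the clustering, so a high level of genes that vary with them is partly built in. With called doublets removed, the cluster so taken was larger and weaker (1272 and 1071 cells) and 2 of 5 members were over 1. With no percentile limits on cells no cluster with strong interferon markers was found, and 0 of 5 members were over 1 in the cluster taken.

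Grouping neutrophils by their UMIs of 64 interferon-stimulated genes, with no schlafen gene among them and every cell thinned to 1000 UMIs, needed no clustering. The score leans on 1 gene, Ifi27l2a, with 2595 of the 8003 CPM summed over these genes in WT neutrophils and 3019 of 9556 CPM in APP/PS1. In WT, Slfn5 had 29.4 CPM in cells with 0 such UMIs, 42.5 CPM with 1, 72.1 CPM with 2 to 3, 157 CPM with 4 to 7 and 567 CPM with 8 or more. In APP/PS1 the same bins gave 31.7, 61.7, 97.7, 194 and 725 CPM. Slfn5 was thus higher in each further bin of both libraries, 19.3-fold and 22.8-fold from the lowest to the highest, where the lowest bin rests on 6 UMIs in each library (10.8 to 64.0 CPM in WT and 11.7 to 69.1 CPM in APP/PS1). Slfn4 went from 152 to 797 CPM in WT and from 206 to 841 CPM in APP/PS1, a ratio of 5.24 and 4.07. Slfn8 went from 14.7 to 86.5 CPM in WT and from 10.6 to 124 CPM in APP/PS1, but the lowest bins rest on 3 and 2 UMIs. Slfn1 gained little up to the last bin in WT, at 593, 601, 597, 650.1 and 941 CPM, and in APP/PS1 went from 582 to 1204 CPM. Slfn2 went from 676 to 946 CPM and from 884 to 1249 CPM, the flattest course of the 5, with ratios of 1.40 and 1.41. Here the bins are ranges of 1 score and no cell types, and they hold 204, 424, 1345, 2478 and 3143 WT cells and 189, 486, 1423, 2732 and 4767 APP/PS1 cells.

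**Figure D3:**
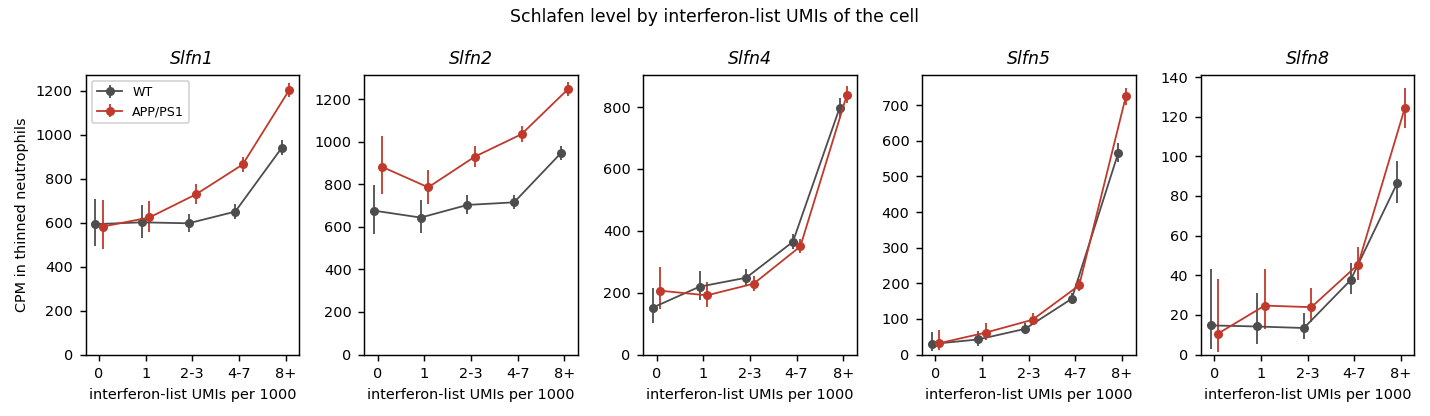
Levels of the 5 schlafen genes in neutrophils thinned to 1000 UMIs, in CPM on a linear axis, by the number of UMIs of the interferon list in the cell, for both libraries, with exact Poisson 95% intervals as bars. Slfn5 goes from 29.4 to 567 CPM in WT and from 31.7 to 725 CPM in APP/PS1, while Slfn2 goes from 676 to 946 CPM and from 884 to 1249 CPM.

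The APP/PS1 library had more neutrophils in the highest bin, 49.7% against 41.4% in WT. With the bins held at their WT sizes, the log2 difference between the libraries was 0.35 for Slfn5 instead of 0.52, 0.48 for Slfn8 instead of 0.62, and 0.03 for Slfn4 instead of 0.15, all in thinned cells. Slfn1 (0.34 instead of 0.40) and Slfn2 (0.44 instead of 0.47) moved less. Holding the 6 clusters at their WT sizes gave 0.43 for Slfn5, 0.44 for Slfn8, 0.03 for Slfn4, 0.34 for Slfn1 and 0.41 for Slfn2 in unthinned cells. In the highest bin itself the log2 differences were 0.35 for Slfn5, 0.52 for Slfn8, 0.08 for Slfn4, 0.36 for Slfn1 and 0.40 for Slfn2.

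Within the 4 large clusters, Slfn1, Slfn2, Slfn5 and Slfn8 were higher in APP/PS1 with intervals above 0, and Slfn4 lay between -0.05 and 0.14. In the Retnlg-low cluster the log2 differences were 0.31 for Slfn1, 0.45 for Slfn2, 0.43 for Slfn5 and 0.57 for Slfn8, with Slfn4 at -0.05, and 4 of 5 intervals lay above 0, against 23.5% of genes. The Retnlg-high cluster gave 0.36, 0.39, 0.60 and 0.37 for these members and 0.07 for Slfn4, again with 4 of 5 intervals above 0 (21.5% of genes). In the cluster carrying platelet transcripts the values were 0.37, 0.40, 0.46 and 0.48, and 0.04 for Slfn4, with 4 of 5 intervals above 0 (20.6% of genes). The interferon-led cluster was the only one of these where the interval of Slfn4 (0.14) lay above 0, and with 0.39 for Slfn1, 0.43 for Slfn2, 0.37 for Slfn5 and 0.31 for Slfn8 it had 5 of 5 above 0, against 21.1% of genes. With 30 principal components Slfn4 in that cluster was at -0.02, so its direction there does not hold.

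The secondary granule-led cluster, whose genes are made in the bone marrow before release, gave mixed directions. There Slfn4 had 433 CPM (WT) and 344 CPM (APP/PS1), a log2 difference of -0.33 (-0.53 to -0.13), and it was the only member with an interval below 0, against 15.8% of genes. Slfn5 had -0.42 and Slfn1 -0.03, both with intervals that include 0, while Slfn2 had 0.21 (0.05 to 0.37) and Slfn8 0.51, from 14 and 32 UMIs, with an interval that includes 0. The cluster holds 168 and 224 cells, and its difference from the other clusters was not tested. In the mitochondrial-led cluster, with 87 and 76 cells, Slfn2 had a log2 difference of 0.58, Slfn1 0.38, Slfn4 0.19 and Slfn5 -0.02.

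**Figure D4:**
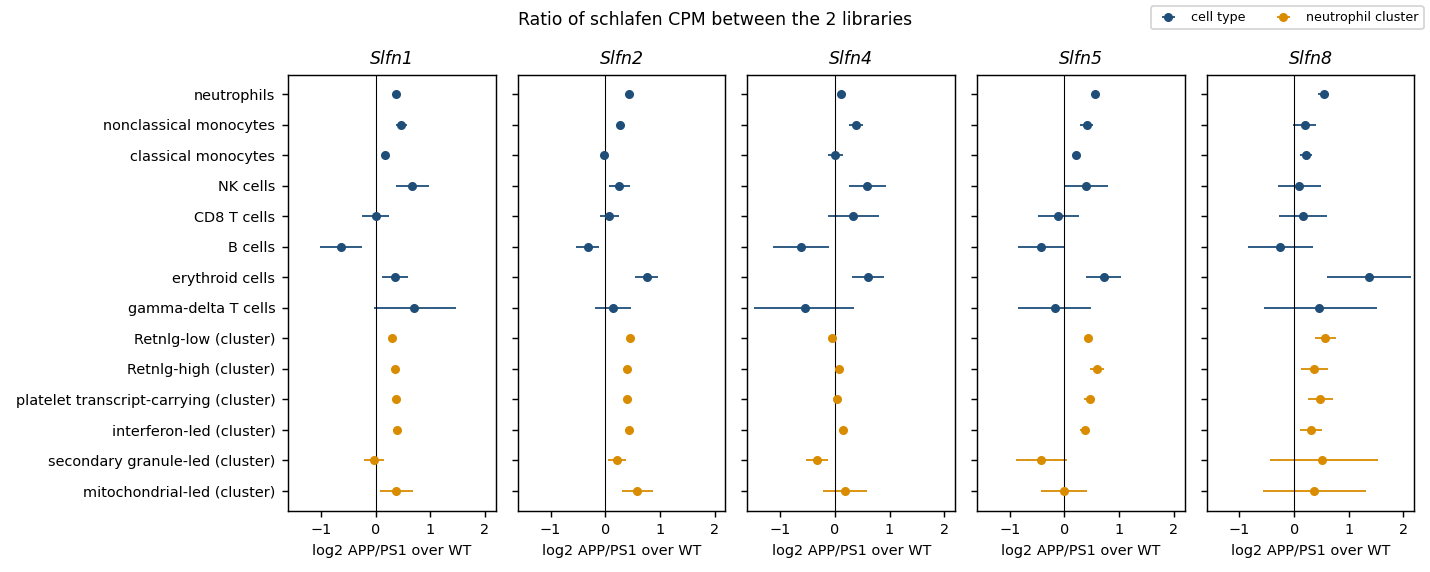
Log2 difference in CPM between the APP/PS1 and WT libraries for each schlafen gene, in each cell type and neutrophil cluster with at least 50 cells per library, with exact conditional 95% intervals as bars for counting error only. The members lie above 0 in neutrophils, from 0.11 for Slfn4 to 0.56 for Slfn5, and below 0 in B cells, from -0.25 to -0.63.

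The interferon list as a whole had a lower median difference than the values of Slfn5 and Slfn8, with more genes past the limit than among all genes. Of its 66 genes 64 were in the count tables and 54 had at least 200 UMIs in the neutrophils of a library, of which 11 were over 0.5 on the log2 scale and 0 under -0.5, with a median of 0.27, against 3.19% over 0.5 and a median of 0.06 for all genes. Summed over the list the level was 8003 CPM (WT) and 9556 CPM (APP/PS1). Of its most abundant genes, Ifi27l2a had 2595 and 3019 CPM (log2 0.22), Ly6e 450 and 488 CPM (0.12), Rsad2, an antiviral enzyme, 416 and 595 CPM (0.52) and Isg15, a ubiquitin-like protein, 374 and 532 CPM (0.51). Among the 54 genes the highest ratios were those of the chemokine gene Cxcl10, at 5.10 and 12.2 CPM (1.27), and Ifit1bl1, at 3.67 and 7.50 CPM (1.03). The lowest were those of Zbp1 (-0.04) and Daxx (-0.01). Cxcl10 (111 and 361 UMIs) and Ifit1bl1 (80 and 221 UMIs) reached 200 UMIs only in APP/PS1, the library where they were high. Ms4a4c (-0.64, 167 and 145 UMIs) and Ifi44 (-1.19, 32 and 19 UMIs), with intervals below 0, did not reach it. The counts past 0.5 and -0.5 thus depend in part on that limit. In the interferon-led cluster 49 of the 55 genes of the list with enough UMIs were over 1 against the other neutrophils (1.22% of all genes), where these genes had helped to form the cluster.

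Among receptors and signalling genes of the interferon pathway, 14 of 14 had enough UMIs and 2 were over 0.5 (3.19% of all genes). These were Ifngr2, a chain of the interferon gamma receptor (0.51), and Usp18, a negative regulator of type I signalling (0.53). The type I receptor chains Ifnar1 (0.03) and Ifnar2 (-0.00) were even between the libraries, and Ifngr1 was at -0.31. Of the ligands, Ifng had 8 UMIs in WT and 9 in APP/PS1 neutrophils, and Ifna4, Ifna2, Ifnb1, Ifnl2 and Ifnl3 had 0 UMIs.

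In nonclassical monocytes the members were also higher in APP/PS1, but these values depended on which cells were counted. The log2 differences were 0.47 for Slfn1, 0.40 for Slfn5, 0.38 for Slfn4, 0.28 for Slfn2 and 0.20 for Slfn8. None was over 0.5, where 0.896% of genes were, and 4 of 5 intervals lay above 0, against 13.6% of genes. With called doublets removed the values were -0.03 for Slfn1, 0.07 for Slfn5, 0.27 for Slfn4, 0.15 for Slfn2 and 0.02 for Slfn8. With no percentile limits Slfn1 was at -0.02. S100a8 and S100a9 together had 18470.1 CPM (WT) and 16973 CPM (APP/PS1) in these monocytes. The neutrophil ratio would bring 86.8 (WT) and 123 (APP/PS1) CPM of Slfn1, where 122 and 169.5 CPM were measured. For Slfn4 it would bring 60.1 and 70.9 of 70.8 and 92.3 CPM, and for Slfn2 91.9 and 136 of 344 and 417 CPM. Nonclassical monocytes with little S100a8 and S100a9 had 43.4 and 49.9 CPM of Slfn1 and 52.1 and 59.7 CPM of Slfn5. Slfn4 had 15.6 and 23.3 CPM there, Slfn2 289 and 322 CPM and Slfn8 27.9 and 28.9 CPM. The part of neutrophil transcripts in the schlafen values was not tested.

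Classical monocytes differed little between the libraries, though Slfn4 was at 0.46 with called doublets removed. Slfn5 had a log2 difference of 0.20, Slfn8 of 0.22 and Slfn1 of 0.18, with intervals above 0, while Slfn4 (0.01) and Slfn2 (-0.03) had intervals that include 0. That makes 0 of 5 members over 0.5 (1.03% of genes) and 3 of 5 intervals above 0 (12.3% of genes).

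NK cells had log2 differences of 0.67 for Slfn1, 0.59 for Slfn4, 0.39 for Slfn5, 0.26 for Slfn2 and 0.09 for Slfn8. Of the 3 members with at least 200 UMIs there, 2 were over 0.5, against 1.69% of genes. These were Slfn1 (130 UMIs in WT and 358 in APP/PS1) and Slfn4 (104 and 270 UMIs), which reached 200 UMIs only in APP/PS1, where they were higher. The neutrophil ratio would bring 79.9 (WT) and 113 CPM (APP/PS1) of Slfn1 to NK cells, against 77.9 and 124 CPM measured. For Slfn4 it would bring 55.3 and 65.1 CPM, against 62.3 and 93.7 CPM. NK cells with little S100a8 and S100a9 had 13.8 and 23.5 CPM of Slfn1 and 17.6 and 26.3 CPM of Slfn4. The part of neutrophil transcripts in these ratios was not tested. With called doublets removed, Slfn1 in NK cells was at 0.07, Slfn2 at -0.18, Slfn5 at -0.03 and Slfn4 at 0.46. In erythroid cells Slfn8 had 1.37, Slfn2 0.76, Slfn5 0.72, Slfn4 0.61 and Slfn1 0.36, and 2 of the 3 members with enough UMIs were over 0.5, where 14.5% of all genes were. The value of Slfn8 rests on 27 and 36 UMIs (0.61 to 2.15). With TMM library sizes Slfn2 was at 0.48, Slfn4 at 0.33 and Slfn1 at 0.08, so 0 of these 3 were over 0.5, and with called doublets removed Slfn2 was at 1.35, Slfn4 at 1.32 and Slfn5 at 1.71. CD8 T cells gave -0.00 for Slfn1, 0.08 for Slfn2, 0.33 for Slfn4, -0.11 for Slfn5 and 0.16 for Slfn8, and every interval there and in gamma-delta T cells included 0. Slfn5 in CD8 T cells was at 0.65 with no percentile limits.

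B cells went the other way. Slfn1 had 77.1 CPM (WT) and 49.9 CPM (APP/PS1) (log2 -0.63, -1.02 to -0.24), Slfn2 219 and 175 CPM (-0.32, -0.53 to -0.11), Slfn4 45.1 and 29.5 CPM (-0.61, -1.12 to -0.10) and Slfn5 60.5 and 44.8 CPM (-0.43, -0.86 to -0.01). Slfn8 had 29.1 and 24.5 CPM (-0.25), with an interval that includes 0. So 4 of 5 intervals lay below 0, against 16.7% of genes, though only Slfn2 had the 200 UMIs that those genes had to reach. S100a8 and S100a9 together were also lower in APP/PS1 B cells, at 5989 CPM against 11177 CPM. Slfn4 was at 0.09 with called doublets removed and at 0.71 in B cells with little S100a8 and S100a9, so its direction in B cells does not hold. With no percentile limits on cells, Slfn1 was at -0.07, Slfn2 at -0.02 and Slfn5 at -0.01 there.

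Reads could in part be shared with other genes of the locus. In the last 500 bases of their transcripts, which 3′ counting reads, Slfn1, Slfn2, Slfn4 and Slfn5 had none of 451 stretches of 50 bases in common with another schlafen transcript. Slfn8 shared 14 of them (3.10%) with Slfn9, so a small part of its UMIs is uncertain. Slfn3 shared 58 (12.9%) with Slfn4. These other members were rare, with 525 and 500 UMIs of Slfn9, 87 and 76 of Slfn3, 30 and 20 of Slfn14, and 2 and 0 of Slfnl1 in all kept cells of WT and APP/PS1, where Slfn8 had 3260 and 3994 and Slfn2 36808 and 46138. Slfn9 had 10.5 CPM in the interferon-led cluster and 1.67 CPM in the other neutrophils, from 53 and 77 UMIs. Gm20234, an antisense gene over Slfn2, had 12.2 and 18.6 CPM in neutrophils and Slfn5os, antisense over Slfn5, had 1 and 4 UMIs.

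The genes around the schlafen genes differed between the libraries in both directions. Within 500 kb of the outermost schlafen genes of chromosome 11, Slfn5 and Slfn14, 60 other genes are annotated. Of these 35 were in the count tables and 16 had at least 200 UMIs in the neutrophils of a library. Their median log2 difference was 0.09, and 3 of the 16 were over 0.5, against 3.19% of all genes. These were Gm20234 (0.61), the chemokine gene Ccl5 (0.59) and the DNA ligase gene Lig3 (0.54). Lig3 had 111 UMIs in WT and 219 in APP/PS1, so it reached 200 UMIs only in the library where it was high. Gm20234 lies over Slfn2 and is not a separate neighbour of it. Under -0.5 were Ccl9 (-0.78), a chemokine gene, and Wfdc17 (-0.69), and Ccl3 was at 0.36.

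**Figure D5:**
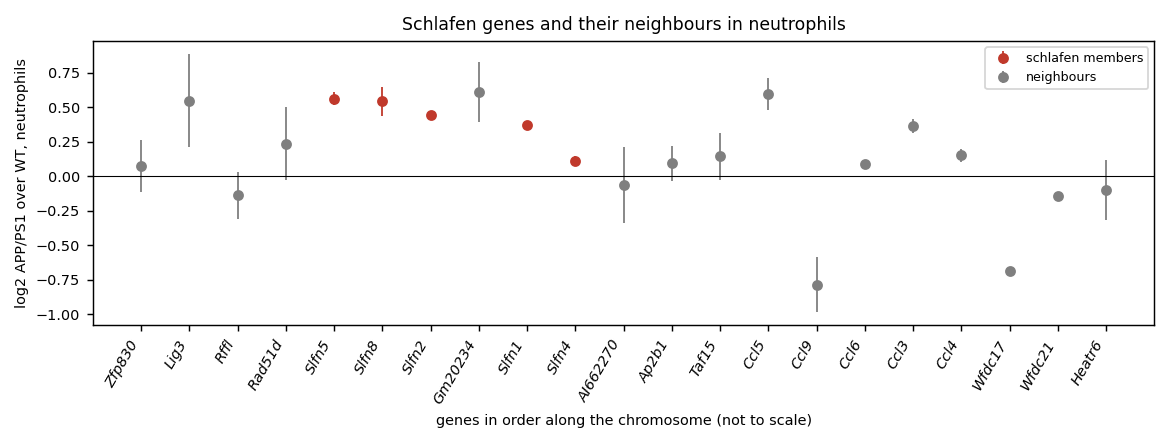
Log2 difference in CPM between APP/PS1 and WT neutrophils for the schlafen genes and their neighbours within 500 kb that had at least 200 UMIs. Genes are plotted in their order along chromosome 11, not to scale. The schlafen genes lie between 0.11 and 0.56, and the neighbours between -0.78 and 0.61 with a median of 0.09.

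Across 27 profiles, each of 1 library in 1 cell type or neutrophil cluster, each member was set beside the genes nearest to it. The values are Pearson r of log2(CPM + 1) over these 27 profiles, and the nearest genes were picked from 10526 genes. The profiles share libraries, depth and free RNA. Many of them are neutrophil clusters, so r rests in part on how neutrophils differ from other cells. Slfn1 was nearest to Rtp4 (0.976), a gene of the interferon list, Gm34084 (0.968) and Hp (0.962), Slfn2 to Rnf34 (0.958), Rab11fip5 (0.948) and Rtp4 (0.945), and Slfn4 to Mxd1 (0.964), Cd33 (0.961) and Ddx60 (0.961). Slfn5 was nearest to Usp18 (0.926), Ifi27l2a (0.916) and Trim30a (0.901), all 3 of the interferon list, and Slfn8 to Irgm1 (0.839), Parp14 (0.836) and Parp9 (0.831), also of that list. Between members r was 0.946 for Slfn1 and Slfn2, 0.913 for Slfn1 and Slfn4, 0.793 for Slfn5 and Slfn8 and 0.419 for Slfn4 and Slfn8. With Isg15, also of the interferon list, r was 0.898 for Slfn1, 0.812 for Slfn2, 0.903 for Slfn4, 0.807 for Slfn5 and 0.544 for Slfn8. With S100a8, Slfn4 had an r of 0.916, Slfn5 0.392 and Slfn8 0.129.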

How the data were processed

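Blood cells of each genotype gave 1 single-cell library. The authors deposited raw UMI counts of each gene in every barcode called a cell, and the submitters' processing notes name Cell Ranger 5.0.0 and mm10. Cells between the 5th and 95th percentile of genes and of UMIs of their library, with at most 10% mitochondrial UMIs, and genes in at least 3 cells were kept. Cells were clustered in Seurat 5.3.0 (R 4.3.3; 2000 variable features, 15 principal components, resolution 0.2) and named where at least 3 markers of a type held. Neutrophils were clustered again after anchor-based integration of the libraries, raising the resolution by 0.05 until 6 or more clusters appeared, without the schlafen genes and without genes that differed by over 0.5 log2 between the libraries. The interferon-led cluster was the one with the highest mean of its markers.

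Called doublets (Scrublet in scanpy 1.11.5, Python 3.11.15, expected rate 8%) stayed in and were removed in an alternative. The automatic threshold called 0% of the APP/PS1 cells, so the WT threshold of 0.217 was used for both, which called 9.04% and 7.29%. That was decided after the calls were seen.

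Groups came from the deposited genotype labels. Sums of UMIs gave CPM with exact Poisson intervals, ratios exact conditional intervals and shares Clopper-Pearson intervals (scipy 1.17.1), at the 95% level and for counting error only. No ratio was formed under 50 cells in a library. Neutrophil depth was 21786045 UMIs in WT and 29476818 in APP/PS1.

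Named were the members, the other schlafen genes, for each member the 3 genes most like it, neighbours within 500 kb that passed a limit, and of the interferon list the 4 most abundant, the 2 highest and the 2 lowest ratios. Ifit1bl1, Cxcl10, Zbp1 and Daxx come from the last part. The signalling genes and ligands were listed apart and Gm20234 and Slfn5os were named as overlapping genes. The members, lists and alternatives were chosen with earlier results of these data known, and the rules for taking clusters were set once a trial clustering had been seen. Alternatives were other limits on cells, doublet removal, other clustering settings, thinning to 1000 UMIs, the mean over cells, and library sizes from TMM (edgeR 4.0.16) or from totals that leave out abundant gene classes. Leaving out cells with over 1% S100a8 and S100a9 UMIs was added after the data had been seen.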

Additional observations from a re-analysis of the deposited data

Results flagged for a closer look

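In B cells 4 members stood lower in APP/PS1 than in WT while they stood higher in neutrophils, each with counting intervals on its own side of 0. The log2 differences were -0.63 in B cells against 0.37 in neutrophils for Slfn1, -0.32 against 0.44 for Slfn2, -0.61 against 0.11 for Slfn4 and -0.43 against 0.56 for Slfn5. In B cells Slfn4 turned to 0.089 with called doublets removed and to 0.71 without cells rich in S100a8 and S100a9, and with no percentile limits Slfn1 was at -0.07, Slfn2 at -0.02 and Slfn5 at -0.01. Slfn4 also stood lower in APP/PS1 in the secondary granule-led cluster, at -0.33, against 0.11 over all neutrophils. It was the only member with an interval below 0 in that cluster, where 15.8% of all genes with enough UMIs had one. A single member does not set the family apart from that share. With 1 library per genotype, none of these differences between cell types or clusters was tested. The neutrophils include the secondary granule-led cluster.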

How the results depend on the processing

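With the 5 members summed, the log2 difference between APP/PS1 and WT neutrophils was 0.37, and 0.44 with no percentile limits, 0.33 with TMM library sizes, 0.33 with library sizes that leave out abundant gene classes and 0.39 in cells thinned to 1000 UMIs. The number of members over 0.5 was 2, and 1 under the first 3 of these. All 35 values of single members under 7 alternatives kept their direction. Summed over the members, the interferon-led cluster stood 1.13 over the other neutrophils. It was 0.39 with no percentile limits, 0.61 with called doublets removed, 1.11 with percentiles over both libraries, with at least 8 clusters and without abundant gene classes, 1.16 with TMM, 1.17 as a mean over cells and in thinned cells, and 1.20 with 30 principal components or with genes that differ between the libraries kept. The number of members over 1 was 3, and 2 with called doublets removed and 0 with no percentile limits, where the cluster taken had a mean log2 ratio of interferon markers of 0.51 instead of 2.66. All 55 values of single members kept their direction, as did 19 of 20 within the interferon-led cluster, where Slfn4 went from 0.14 to -0.02 with 30 principal components. In other cell types 122 of 140 kept it and 18 did not. Of those with an interval outside 0, Slfn4 in B cells went from -0.61 to 0.089 with called doublets removed and to 0.71 without cells rich in S100a8 and S100a9. Slfn1 in nonclassical monocytes went from 0.47 to -0.03 with called doublets removed and to -0.02 with no percentile limits. In NK cells Slfn2 went from 0.26 to -0.18 with called doublets removed and to -0.14 without cells rich in S100a8 and S100a9, and Slfn5 from 0.39 to -0.03 with called doublets removed. The cause was not tested.

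No paired analysis was possible because each genotype has 1 library and the replicate number is only a name. Pooled mice leave no error between animals, counting intervals are narrower than that error would be, and depth limits Slfn8 and the small cell types most.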
